A study of Mus musculus with 24 samples.

Results

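The comparison of gastrocnemius muscle from mdx mice with gastrocnemius from wild type (WT) mice was read from the arrays titled mdx and WT for that tissue, 3 arrays a group, which are 6 of the 24 arrays in the series. The series measured RNA with Affymetrix mouse arrays in the gastrocnemius, a calf muscle built mostly of fast fibres, and in the heart of the same animals. It crossed dystrophin loss with loss of Cmah, the enzyme that makes N-glycolylneuraminic acid from N-acetylneuraminic acid, and so also held Cmah knockout mdx and Cmah knockout animals. The comparison asks what differs in skeletal muscle without dystrophin while Cmah is intact.

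The mdx animals carry the strain label C57BL6/10J and the WT animals C57BL/6J, and all were males aged 2 months. Strain and the dystrophin mutation therefore cannot be told apart in this comparison. The Cmah knockout mdx animals (label C57BL6/10J) and the Cmah knockout animals (label C57BL/6J), also males aged 2 months, crossed the same strain labels. The labels do not state littermates, batches or the origin of the colonies. Each array came from a separate animal, and 3 animals a group limit the precision of every value below.

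Dystrophin links the actin cytoskeleton of the muscle fibre through the dystroglycan and sarcoglycan complex to the basement membrane. The mdx mouse carries a premature stop in Dmd, and its limb muscles go through repeated rounds of fibre necrosis, entry of macrophages and regeneration from satellite cells. Fibres that regenerate pass again through a developmental programme, with embryonic and perinatal myosin heavy chains made before the adult ones.

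Values are log2 of the deposited intensities, and differences are mdx minus WT with the standard error (SE) from limma. A call means a Benjamini-Hochberg adjusted p below 0.05 over all probe sets tested. The 5 calls among 29518 probe sets amount to 0.0169% of them, with 4 higher in mdx (0.0136%) and 1 lower (0.00339%). An unadjusted p below 0.05 was found for 1064 probe sets (3.6%), where evenly spread p-values would give 1476. In a fit of the 6 mdx and WT arrays alone all 5 calls were lost (adjusted p = 0.141 to 0.34). On 1 probe set per gene, 13232 genes were tested, with 4 calls (0.0302%) and a median difference of 0.02. The difference was above 0 for 52.7% of the genes and below 0 for 47.3%, and an unadjusted p below 0.05 was found with mdx higher for 3.17% and with mdx lower for 1.13%.

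Array medians lay between 41.99 and 49.69 in mdx and between 43.85 and 48.26 in WT. The log2 difference between the 3' and 5' Gapdh controls, a measure of RNA integrity and amplification, was 0.76, 0.71 and 0.37 in mdx replicates 1 to 3, against 0.39, 0.52 and 0.82 in WT. Mean correlations of an array with its own group (0.917 to 0.938 in mdx, 0.888 to 0.911 in WT) were about as high as with the other gastrocnemius groups (0.922 to 0.929 and 0.894 to 0.934). The tissue label fits its markers: the fast myosin Myh4 read 13.60 to 13.94 in these arrays and 7.32 to 10.68 in heart, and the atrial peptide Nppa read 3.43 to 7.32 against 12.02 to 13.08.

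Dmd, the gene mutated in mdx mice, read 8.59, 8.45 and 8.06 in mdx gastrocnemius, against 10.26, 10.06 and 10.17 in WT gastrocnemius. Every mdx array lay below every WT array. The difference of -1.80 ± 0.31 did not pass (limma adjusted p = 0.187), and a further Dmd probe set gave -1.66 ± 0.34 (adjusted p = 0.293). The other 2 Dmd probe sets tested, both dimmer, gave 0.07 ± 0.48 and 0.53 ± 0.36 with overlap between the groups. The partners of dystrophin showed no common direction. Utrn, the autosomal relative of dystrophin, read 11.69, 11.82 and 11.25 in mdx, against 11.42, 11.43 and 11.41 in WT, with overlap between the groups. Of the 14 tested members of the dystrophin complex list, 8 had a positive difference, none passed, and the median was 0.02 (-0.15 to 0.33 when 1 array was left out). Dag1 (dystroglycan) differed by 0.08 ± 0.27, Sgca and Sgcb (sarcoglycans) by -0.07 ± 0.45 and -0.19 ± 0.47, and Sntb1 (beta-1-syntrophin) by 1.21 ± 0.50.

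Of the 40 gene lists only the developmental list held calls at its brightest probe sets, those of the embryonic and perinatal myosins. Their promoters are printed because these neighbours in 1 gene cluster were called together, with the promoter of the adult fast myosin Myh4, a neighbour in the same cluster, beside them. The windows are the 250 bases before each start in the RefSeq table (GRCm38.p6, plus strand), at chr11:67078050-67078299 for Myh3, chr11:67276874-67277123 for Myh8 and chr11:67237562-67237811 for Myh4. Capitals mark the E-box letters CANNTG, the core that myogenic bHLH factors such as MyoD bind.
Myh3: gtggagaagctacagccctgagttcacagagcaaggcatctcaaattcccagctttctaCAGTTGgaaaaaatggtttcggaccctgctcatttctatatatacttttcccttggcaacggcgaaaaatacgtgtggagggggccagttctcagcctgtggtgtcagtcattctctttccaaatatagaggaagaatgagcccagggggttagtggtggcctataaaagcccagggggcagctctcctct
Myh8: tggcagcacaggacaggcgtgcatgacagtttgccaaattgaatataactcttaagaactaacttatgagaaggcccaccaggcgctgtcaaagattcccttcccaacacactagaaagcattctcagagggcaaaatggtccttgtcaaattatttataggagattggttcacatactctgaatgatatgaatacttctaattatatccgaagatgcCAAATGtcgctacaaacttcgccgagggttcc
Myh4: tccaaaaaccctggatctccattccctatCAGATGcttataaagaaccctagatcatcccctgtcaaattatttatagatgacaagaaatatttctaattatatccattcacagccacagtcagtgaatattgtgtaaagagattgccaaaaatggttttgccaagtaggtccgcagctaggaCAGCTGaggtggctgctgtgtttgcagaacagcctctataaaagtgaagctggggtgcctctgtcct
Myh3 and Myh8 hold 1 E-box each and Myh4 holds 2. The letters CANNTG, which read the same on both strands, occur at least once in 66.2% of 32851 promoter windows of this length and at least 2 times in 31.8%. The letters CATTCC (the MCAT element), searched on both strands, were found once in Myh4 and in neither of the others, against 12.6% of all windows, and no matches of the searched motifs overlapped. These matches are a description of the windows and say nothing of binding.

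Myh3, the embryonic myosin heavy chain, read 10.33, 11.32 and 10.37 in mdx, against 7.60, 7.54 and 7.34 in WT. The 3 WT values lie close together, and the lowest mdx value stands well above them. Myh3 rose 9.05-fold (3.18 ± 0.40, limma adjusted p = 0.0363). Myh8, the perinatal heavy chain, read 8.57, 9.73 and 10.31 in mdx, against 5.11, 5.02 and 6.37 in WT. The groups did not overlap, with a spread of more than 1 unit in each. Myh8 rose 16.4-fold (4.04 ± 0.53, adjusted p = 0.0388). Both calls sit close to the threshold. That of Myh3 was lost on leaving out any of the 6 mdx and WT arrays (adjusted p = 0.0578 to 0.144), any Cmah knockout array (0.0655 to 0.0802) or Cmah knockout mdx replicate 3 (0.0651). That of Myh8 was lost without WT replicate 1 (0.177) or 2 (0.203), mdx replicate 2 (0.196) or 3 (0.0979), any Cmah knockout array (0.0655 to 0.0999) or Cmah knockout mdx replicate 1 (0.0543) or 2 (0.0721).

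Most other members of the developmental list gave differences in the same direction without passing. Myl4, the light chain of embryonic muscle and atrium, read 11.62, 12.50 and 11.99 in mdx, against 9.49, 10.00 and 9.12 in WT (2.50 ± 0.41, adjusted p = 0.152). Runx1, a transcription factor of denervated and regenerating fibres, read 8.97, 9.70 and 9.14 in mdx, against 7.06, 7.99 and 7.62 in WT (1.72 ± 0.33). Igf2, a growth factor of muscle differentiation, read 10.55, 11.71 and 11.87 in mdx, against 10.11, 8.92 and 7.66 in WT (2.48 ± 0.66). In these genes too every mdx array stood above every WT array. Tnnt2, the cardiac troponin T of immature fibres, overlapped, since WT replicate 3 at 10.62 was above all mdx arrays (10.42, 10.42 and 9.56). Of the 15 tested members of the developmental list of 16, 13 had a positive difference and the median was 1.03. The exceptions were Xirp1 (-0.41 ± 0.28) and Csrp3 (-0.39 ± 0.52), sarcomere-associated proteins. For 6 of the 15 all mdx arrays lay above all WT arrays, against 4.45% of all genes tested. By array, the list's median deviation from the WT mean was 1.28, 1.24 and 1.54 in mdx and -0.05, 0.03 and -0.10 in WT.

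**Figure D1:**
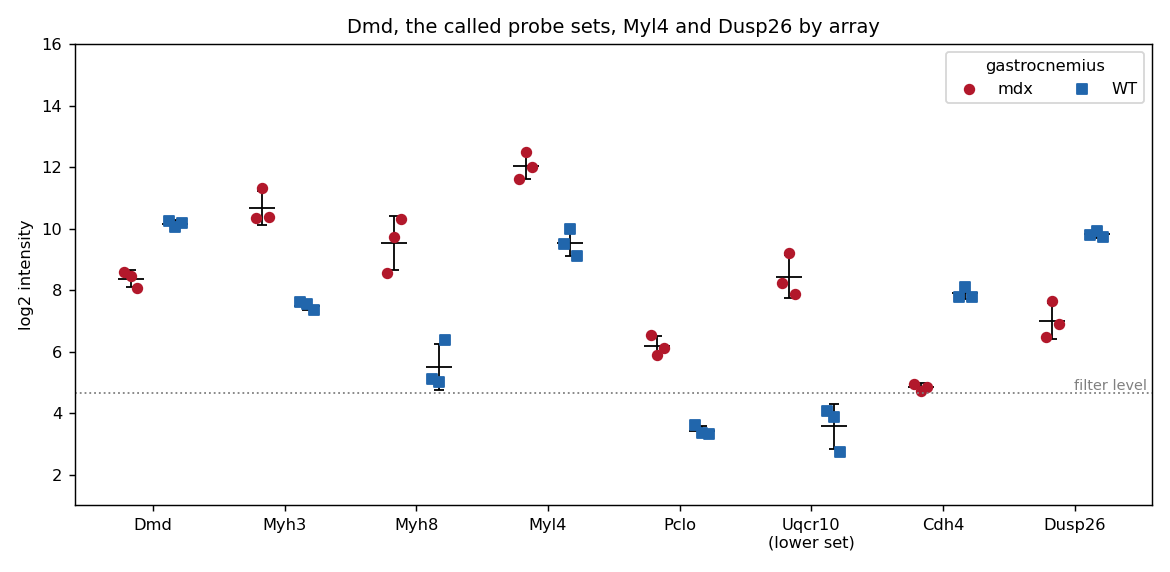
Log2 intensity of Dmd, Myh3, Myh8, Myl4, Pclo, a lower Uqcr10 probe set, Cdh4 and Dusp26 in each array of mdx (circles, left of each pair) and WT (squares, right), with the group mean and SD (n = 3 each) and the filter level of 4.66 as a dotted line. For all 8 probe sets the mdx and WT arrays do not overlap, and the WT arrays of Pclo and of the Uqcr10 probe set lie below the filter level.

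Satellite cell and fusion genes were led by the muscle fusogens. Mymx (myomixer), a micropeptide needed for myoblast fusion, read 9.28, 9.81 and 8.16 in mdx, against 3.25, 5.20 and 2.59 in WT. Mymk (myomaker), its membrane partner in fusion, read 6.23, 8.06 and 7.61 in mdx, against 4.23, 4.86 and 3.75 in WT. The differences of 5.40 ± 1.01 and 3.02 ± 0.56 are among the largest measured, with no overlap, but their SE was large and neither passed (adjusted p = 0.224 each). WT replicates 1 and 3 lay below the filter level in both genes, so that the sizes are uncertain. Mymx also had the highest difference of all 13232 genes. The transcription factor Myog, which starts terminal differentiation, differed by 1.64 ± 0.71 and Myod1 by 0.94 ± 0.50. Pax7, the satellite cell marker, read 7.76, 8.33 and 7.10 in mdx, against 6.29, 7.92 and 7.03 in WT (0.65 ± 0.51), with overlap. Pax3 lay in the opposite direction (-1.48 ± 0.65). The median of the 17 tested members of the list of 18 was 0.45 (0.28 without WT replicate 3 or mdx replicate 1), with 13 positive differences and no call.

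Subunits of the acetylcholine receptor at the neuromuscular junction belong to a fetal and an adult form of the receptor. Chrng, the fetal gamma subunit, read 7.02, 7.73 and 6.33 in mdx, against 4.66, 5.52 and 5.58 in WT (1.77 ± 0.44). Chrne, the subunit that replaces it in adult muscle, read 7.39, 7.25 and 7.00 in mdx, against 6.84, 7.01 and 7.51 in WT (0.09 ± 0.27). Chrna1 (alpha) and Chrnb1 (beta), present in both forms, differed by 1.85 ± 0.51 and 0.89 ± 0.29. Chrng, Chrna1 and Chrnb1 did not overlap between the groups, whereas Chrne did, and the difference between subunits was not tested. Colq, the collagen tail that anchors acetylcholinesterase, was lower in every mdx array (3.98, 4.34 and 3.96 in mdx, against 4.43, 4.82 and 5.11 in WT). All mdx values of Colq and that of WT replicate 1 lay below the filter level, so that the size is uncertain. None of the 14 tested members of this list passed.

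Ncam1, the neural cell adhesion molecule that marks satellite cells and denervated or regenerating fibres, had several probe sets that gave different sizes. A dim one read 5.55, 5.72 and 4.56 in mdx, against 3.05, 3.29 and 2.64 in WT (2.28 ± 0.34, adjusted p = 0.0691), and its WT values are below the filter level. The brightest gave 1.03 ± 0.45. Vash2, a vasohibin that acts on tubulin, differed by 2.08 ± 0.36, Maged2, a MAGE family protein, by 1.79 ± 0.31 and Shisal1 by 2.16 ± 0.34, none of them past the threshold (adjusted p = 0.207, 0.219 and 0.104). In Maged2 the 3 WT arrays were nearly equal, at 7.82, 7.86 and 7.87, below 9.15, 9.86 and 9.89 in mdx. This is not the brightest Maged2 probe set, which read 12.23, 10.83 and 11.35 in mdx, against 10.15, 9.28 and 11.74 in WT (1.08 ± 0.71), with overlap. The name of that brightest one ends in _x_at, which marks probes shared with other transcripts.

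The other calls were a cadherin, a presynaptic scaffold protein and a probe set of a respiratory chain gene. Cdh4, R-cadherin, read 4.96, 4.71 and 4.85 in mdx, against 7.78, 8.10 and 7.79 in WT. The mdx values lie just above the filter level. Cdh4 fell by 3.05 (SE 0.27, adjusted p = 0.00343), a level 8.28-fold lower in mdx, and its call was kept on leaving out any 1 gastrocnemius array. A further Cdh4 probe set read 2.95, 4.47 and 4.19 in mdx, against 6.16, 7.40 and 7.04 in WT (-2.99 ± 0.55, adjusted p = 0.224). Another read 3.24, 3.40 and 3.88 in mdx, against 4.73, 6.30 and 3.73 in WT (-1.42 ± 0.55), with overlap. In both of these probe sets the mdx values lie below the filter level, so that the sizes are uncertain.

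Pclo (piccolo), a scaffold of the presynaptic active zone, read 6.53, 5.88 and 6.13 in mdx, against 3.60, 3.35 and 3.32 in WT. It rose by 2.76 ± 0.29 (adjusted p = 0.00966), a 6.77-fold ratio against WT levels below the filter level, so that its size is uncertain. The call was lost without WT replicate 2 (adjusted p = 0.0851). Of the further probe sets for Pclo, 2 were too dim to be tested.

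Uqcr10, a small subunit of respiratory complex III, rose at 1 of its 3 probe sets, which read 8.23, 9.22 and 7.87 in mdx, against 4.07, 3.89 and 2.74 in WT (4.88 ± 0.55, adjusted p = 0.0147). A further probe set, whose name (suffix _x_at) marks probes shared with other transcripts, gave 2.80 ± 0.52 (adjusted p = 0.224). The brightest Uqcr10 probe set read 11.63, 12.08 and 11.68 in mdx, against 12.09, 12.34 and 11.70 in WT (-0.25 ± 0.31). The probe sets thus disagree, and the change cannot be read as one of total Uqcr10 RNA. The call was lost without WT replicate 2 (adjusted p = 0.0851), mdx replicate 1 (0.0515) or mdx replicate 2 (0.083).

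Dusp18, a phosphatase gene on the same chromosome 11, showed a like split. Its dimmer probe set read 6.36, 8.64 and 6.89 in mdx, against 4.50, 4.65 and 4.27 in WT (2.82 ± 0.58, adjusted p = 0.293), while its brighter one gave 0.40. The WT mean of the dimmer one, 4.48, was below the filter level. Pisd-ps3, a pseudogene of phosphatidylserine decarboxylase, read 6.65, 6.16 and 6.56 in mdx, against 8.75, 8.14 and 8.46 in WT (-1.99 ± 0.28, adjusted p = 0.0541). Of its 5 probe sets, 3 had all mdx arrays below all WT arrays, while the other 2, which were brighter over these 6 arrays, gave -0.15 ± 0.49 and -0.02 ± 0.40 with overlap.

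Among the genes lower in every mdx array that did not pass, some are known from nerve. Dusp26, a dual-specificity phosphatase of brain, heart and skeletal muscle, read 6.48, 7.63 and 6.89 in mdx, against 9.80, 9.92 and 9.71 in WT (-2.81 ± 0.40, adjusted p = 0.0541). Cntnap2, a neurexin-family protein of the axon near the node of Ranvier, read 7.61, 8.27 and 6.34 in mdx, against 9.34, 10.29 and 9.82 in WT (-2.41 ± 0.45). Ugt8a, which makes the galactolipid of myelin, differed by -1.26 ± 0.26. None of these probe sets overlapped between the groups, but a dimmer tested Cntnap2 probe set did (-1.38 ± 0.82). Of 11 genes in the Schwann cell and nerve list only 5 were tested, with a median of -0.72 (-0.17 without WT replicate 2). There were 4 negative differences, and the highest value was 0.68. Mbp, a myelin protein, read 10.24, 10.33 and 10.04 in mdx, against 11.18, 10.90 and 10.70 in WT (-0.72 ± 0.27), and Sox10, the Schwann cell transcription factor, differed by -1.10 ± 0.41. All mdx arrays lay below all WT arrays for both, against 2.63% of all genes tested, and Pmp22, a further myelin protein, differed by -0.16 ± 0.26 with overlap. The amount of nerve in each dissected muscle was not measured. Among other genes on the lower side, 0610040J01Rik differed by -2.03 ± 0.29 (adjusted p = 0.0579), Ccdc146 by -1.96 ± 0.39 and Krt222 by -1.48 ± 0.31.

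Macrophage and monocyte markers had the highest median of the 40 lists. All 27 tested members of the list of 29 had a positive difference, with a median of 1.61, 20 did not overlap (against 4.45% of all genes), and 24 had an unadjusted p below 0.05 (against 3.17% of all genes with mdx higher), yet none passed after adjustment. In a whole muscle, more cells of a type and more RNA per cell cannot be told apart. Gpnmb, a glycoprotein of lysosome-rich macrophages, read 9.47, 10.53 and 9.29 in mdx, against 7.21, 7.06 and 5.63 in WT (3.13 ± 0.56, adjusted p = 0.224). Lgals3 (galectin-3) read 11.10, 11.93 and 10.67 in mdx, against 9.30, 8.54 and 7.24 in WT (2.88 ± 0.51). Ms4a7 and Mpeg1, both macrophage genes, differed by 2.88 ± 0.65 and 2.66 ± 0.61. The classical marker Cd68 differed by 2.59 ± 0.83, and Ccr2, the chemokine receptor of inflammatory monocytes, by 1.78 ± 0.48. The markers of resident macrophages Cd163 and Mrc1 had smaller values, 0.25 ± 0.32 and 0.82 ± 0.35. By array the list's median deviation from the WT mean was 1.26, 2.16 and 1.40 in mdx and 0.73, -0.39 and -0.52 in WT.

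WT replicate 1 was the highest WT array in this list and stood apart in the markers of other cells. It read 10.42 for the B cell receptor component Cd79b, against 4.50, 5.29 and 4.35 in mdx and 4.80 and 3.53 in the other WT arrays. For the T cell receptor component Cd3d it read 9.54, against 4.39, 5.78 and 4.11 in mdx and 5.53 and 4.19 in the other WT arrays. Its median deviation was 2.50 over 10 tested T and NK cell genes, 2.20 over 4 B cell genes and 1.50 over 9 adipocyte genes. The summed intensity of the T and NK cell list ran from 347 to 634 in mdx and from 218 to 3379 in WT, that of the B cell list from 464 to 771 in mdx and from 391 to 4035 in WT, and that of the adipocyte list from 5706 to 10149 in mdx and from 5611 to 16509 in WT. Those lists had medians of -0.60, -0.79 and -0.11, and without WT replicate 1 the B cell median was 0.49, the T and NK cell median 0.54 and the adipocyte median 0.36. Without WT replicate 1 the macrophage median was 1.85.

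**Figure D2:**
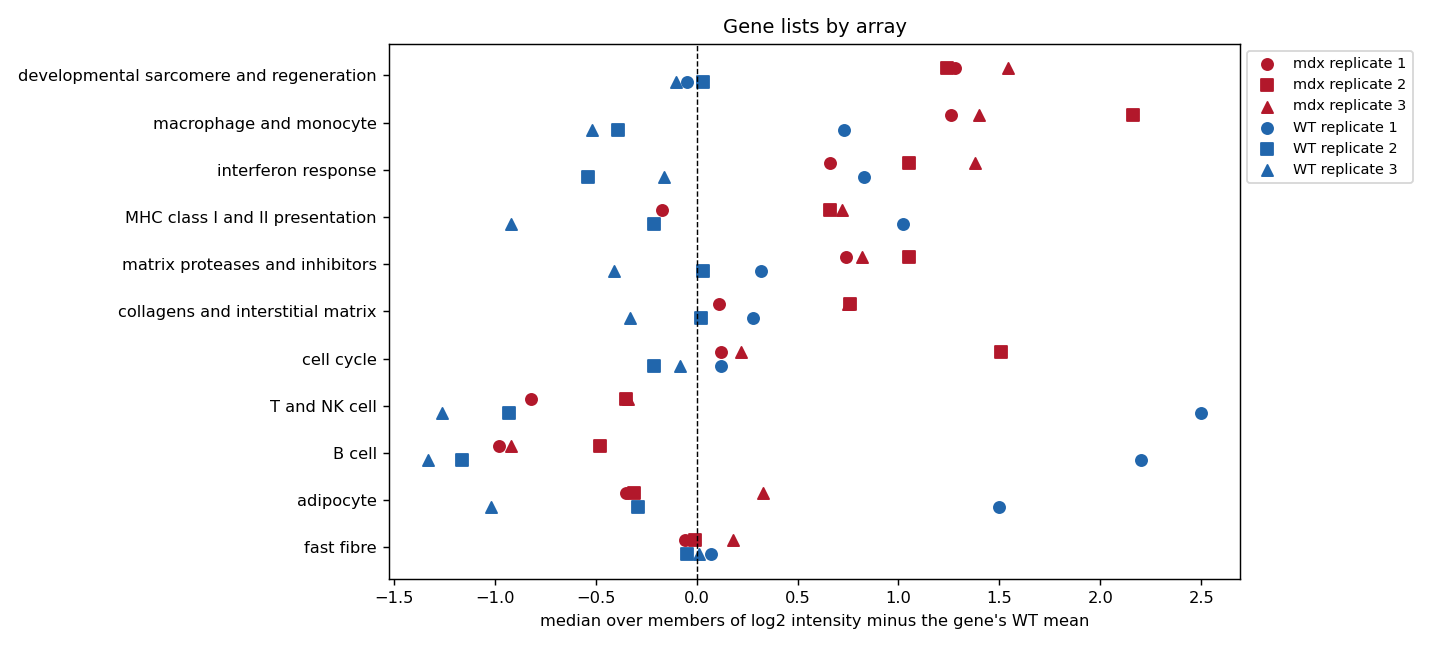
Median over the tested members of 11 gene lists of log2 intensity minus the gene's WT mean, for each mdx array (red, upper of each pair) and each WT array (blue, lower), with a marker shape for each replicate number. The mdx arrays lie to the right of all WT arrays in the developmental, macrophage and matrix protease lists (1.24 to 1.54, 1.26 to 2.16 and 0.74 to 1.05), while WT replicate 1 lies far right in the T and NK cell (2.50), B cell (2.20) and adipocyte (1.50) lists, and mdx replicate 2 alone lies far right in the cell cycle list (1.51).

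Interferon-responsive genes followed, with 18 of 18 tested members positive and a median of 0.96. Rsad2 (viperin) read 10.18, 10.31 and 10.30 in mdx, against 9.26, 7.97 and 9.27 in WT (1.43 ± 0.40). Oas1a and Oasl2, of the oligoadenylate synthetase family, differed by 1.66 ± 0.47 and 1.84 ± 0.52, and the antiviral GTPase Mx1 by 2.03 ± 0.84 with overlap. None passed, and 6 did not overlap, against 4.45% of all genes with every mdx array above every WT array. WT replicate 1 was again the highest WT array by the list median (0.83, against -0.54 and -0.16 in the other WT arrays and 0.66, 1.05 and 1.38 in mdx), and the list median was 1.33 without it and 0.64 without WT replicate 2. The list of antigen presentation genes also moved with single arrays. Its median of 0.34 over 14 genes was 1.11 without WT replicate 1 and -0.02 without WT replicate 3, and for no member did the groups separate.

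Among chemokines and cytokines 18 of 19 tested genes had a positive difference (median 0.79). Ccl7, a monocyte chemoattractant, read 5.58, 7.51 and 8.17 in mdx, against 5.24, 4.06 and 2.37 in WT (3.20 ± 1.12). Il1rn, the antagonist of the interleukin-1 receptor, read 6.41, 7.82 and 6.43 in mdx, against 3.99, 3.72 and 4.69 in WT (2.76 ± 0.67). Ccl8, which like Ccl7 draws in monocytes, differed by 1.00 ± 0.31. The groups did not overlap in these 3 genes, and none passed. WT replicates 2 and 3 of Ccl7 and WT replicates 1 and 2 of Il1rn lay below the filter level, so that both sizes are uncertain. In the complement list (median 0.62, but 0.37 without WT replicate 3 and 1.10 without WT replicate 1), C3ar1, the receptor for C3a, differed by 2.23 ± 0.54, and Cd59a, an inhibitor of the membrane attack complex, had the opposite sign. It read 9.23, 9.68 and 9.26 in mdx, against 10.50, 10.26 and 10.38 in WT (-0.99 ± 0.29), with no overlap. All 17 tested lysosomal genes had positive differences (median 0.58, but 0.28 without WT replicate 3 and 0.90 without WT replicate 1), with Grn (progranulin) at 0.94 ± 0.35. Of the neutrophil list of 12 only 5 genes were tested. Ltf (lactoferrin) had -1.61 ± 0.51, and S100a8 ranged from 7.26 to 8.56 in mdx and from 5.09 to 10.62 in WT.

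Matrix proteases with their inhibitors and matrix proteins were read as separate lists, and the difference between the lists was not tested. Mmp12, the macrophage elastase, read 7.96, 9.94 and 7.24 in mdx, against 4.66, 3.95 and 3.69 in WT (4.28 ± 0.85, adjusted p = 0.284). The WT mean of Mmp12, 4.10, was below the filter level, so that its size is uncertain. Timp1, an inhibitor of these proteases, read 8.26, 9.93 and 9.19 in mdx, against 6.17, 6.56 and 5.91 in WT (2.91 ± 0.73). Adam8, a protease of activated leukocytes, differed by 2.68 ± 0.89, and Mmp14, the membrane protease that activates Mmp2, by 0.89 ± 0.24. For all 4 genes the groups did not overlap. The list median was 0.80 with 15 of 19 positive, and Mmp8 (-0.82 ± 0.46), Timp4 (-0.69 ± 0.33), Mmp9 and Timp3 were the negative members. Among collagens and interstitial matrix proteins 23 of 24 were positive, with a median of 0.63 (0.34 without WT replicate 3) and no call. Col1a1 read 12.64, 12.40 and 12.74 in mdx, against 12.29, 12.72 and 12.73 in WT (0.02 ± 0.29), and Col3a1 differed by 0.27 ± 0.30. Larger values belonged to Bgn (biglycan, 0.85 ± 0.27), Col8a1 (1.24 ± 0.40) and Postn (periostin, 1.42 ± 0.72). The 13 basement membrane genes were all positive with small values (median 0.35, highest Nid2 at 0.66 ± 0.35), and the 12 fibroblast markers had a median of 0.49. The basement membrane median was 0.06 without mdx replicate 3 and 0.21 without WT replicate 3, and the fibroblast median 0.27 and 0.23.

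Cell cycle genes rested on 1 animal. The list median of 0.69 came from per-array medians of 0.12, 1.51 and 0.22 in mdx and 0.12, -0.21 and -0.08 in WT, and it was 0.18 without mdx replicate 2. Birc5 (survivin), for instance, read 7.78, 9.54 and 7.25 in mdx, against 6.77, 6.75 and 6.60 in WT (1.48 ± 0.65). Mki67 overlapped (7.02, 8.31 and 6.83 in mdx, 6.95, 6.01 and 7.74 in WT). The summed intensity of the 28 genes ranged from 3466 to 9631 in mdx and from 3587 to 3656 in WT. The same animal had the highest macrophage median (2.16) and the highest values of Gpnmb, Mmp12, Mymx and Chrna1. Whether these move together across animals cannot be read from 3 arrays.

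Adult fibre genes differed little in size. Differences of the 15 fast fibre genes ran from -0.07 to 0.20 with a median of 0.04 and SE of about 0.22 to 0.27, and Myh4, the neighbour of Myh3 and Myh8 whose promoter is printed above, read 13.65, 13.60 and 13.94 in mdx, against 13.84, 13.69 and 13.79 in WT. These probe sets lie near the top of the intensity range. The 12 slow fibre genes had a median of -0.21 (-0.05 without WT replicate 1), with Myh7 at -0.25 ± 0.28 and the calcium-binding Casq2 at 0.63 ± 0.31. In the respiratory chain list the 28 genes lay between -0.25 and 0.14 (median -0.06), and 14 glycolysis genes between -0.20 and 0.13 (median -0.03). Fatty acid uptake and oxidation genes had 20 of 22 negative differences, all small (median -0.12, or -0.03 without WT replicate 1, lowest Ppara at -0.65 ± 0.67). None of these genes passed. A p that misses the threshold does not show equal levels.

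**Figure D3:**
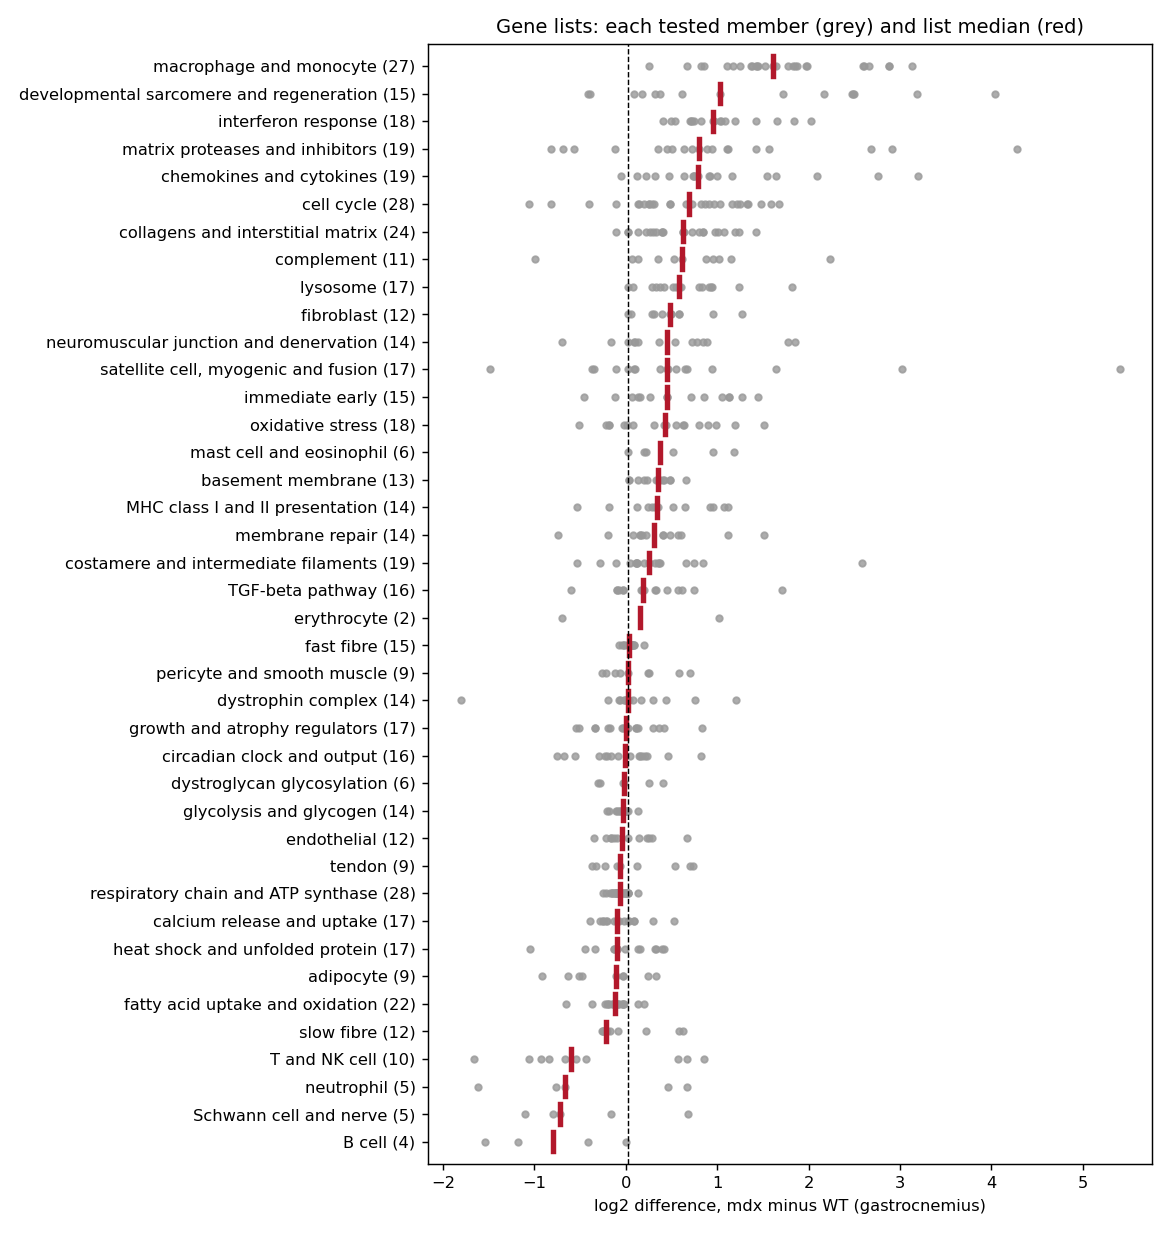
Log2 difference, mdx minus WT in gastrocnemius, of each tested member (grey points) and the median (red bars) of 40 gene lists, with the number of tested members in brackets and the median of all 13232 genes (0.02) as a dashed line. The macrophage list has the highest median (1.61), the developmental list reaches 4.04 (Myh8), fast fibre genes lie within -0.07 to 0.20, and the 4 lowest medians belong to lists of 4 to 10 tested genes.

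Stress and repair genes were mixed. Myof (myoferlin), which serves membrane repair and myoblast fusion, read 6.72, 7.66 and 6.63 in mdx, against 5.97, 5.33 and 5.18 in WT (1.51 ± 0.44), whereas Dysf (dysferlin) differed by 0.22 ± 0.35. Nox4, an NADPH oxidase, read 7.96, 7.75 and 7.52 in mdx, against 7.06, 6.45 and 6.12 in WT (1.20 ± 0.36). The cell cycle inhibitor Cdkn1a (p21) read 10.14, 10.20 and 10.43 in mdx, against 9.26, 9.46 and 9.57 in WT (0.83 ± 0.29). In each of the 3 genes with single values given here the groups did not overlap. The atrophy ligase Trim63 differed by -0.51 ± 0.33 and Fbxo32 by -0.17 ± 0.34. Immediate early genes had a median of 0.45 (0.23 without mdx replicate 3, 0.89 without WT replicate 1), with Fos at 11.40, 11.06 and 11.97 in mdx, against 8.91, 11.21 and 9.97 in WT (1.45 ± 0.62), which overlapped. The lists of clock genes (median -0.01), heat shock genes (-0.10), calcium handling (-0.09), endothelial (-0.04) and pericyte genes (0.03) lay near the median of all genes. The other lists had medians of 0.43 (oxidative stress), 0.37 (mast cell and eosinophil), 0.31 (membrane repair), 0.25 (costamere), 0.19 (TGF-beta pathway), 0.16 (erythrocyte, 2 genes tested), 0.00 (growth and atrophy), -0.02 (dystroglycan glycosylation) and -0.06 (tendon), with no call. Without WT replicate 3 the oxidative stress, membrane repair and TGF-beta medians were 0.09, 0.09 and 0.12, without mdx replicate 3 the costamere median was 0.09, and without mdx replicate 1 the mast cell median was 0.83. In the costamere list Krt18, a keratin, read 7.28, 7.36 and 8.75 in mdx, against 7.34, 4.45 and 3.86 in WT (2.58 ± 0.99), with overlap through WT replicate 1.

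The Cmah-deficient animals gave a further measurement of dystrophin loss in the same tissue, on other arrays but across the same strain labels. Both comparisons share the estimate of the spread from 1 fit of all gastrocnemius arrays, so that their p-values are not independent. Cmah knockout mdx against Cmah knockout had 33 calls (0.112%). Myh3 differed there by 4.23 ± 0.40, Myh8 by 4.65 ± 0.53, Pclo by 2.01 ± 0.29 and Cdh4 by -3.18 ± 0.27, all past the threshold (adjusted p = 0.00379, 0.0116, 0.0315 and 0.00215). Dusp26 (-3.27 ± 0.40), 0610040J01Rik (-2.73 ± 0.29), Dmd (-1.96 ± 0.31), Maged2 (2.17 ± 0.31), Mymk (4.05) and Runx1 (2.23), which did not pass in mdx against WT, passed there, with adjusted p from 0.0091 to 0.0388. So did Vash2 (2.55, limma adjusted p = 0.0308), Mmp12 (5.56, 0.0386), Lgals3 (3.27, 0.0408) and Shisal1 (2.14, 0.0408). Uqcr10 did not: its lower probe set read 4.25 ± 0.23 in Cmah knockout mdx and 4.39 ± 1.08 in Cmah knockout (SD, n = 3 each), so that of the 4 groups only mdx was high. Dusp18 at its dimmer probe set likewise read 4.32 ± 0.86 and 4.85 ± 0.58. The test of the difference between the 2 readings of dystrophin loss called no probe set with limma (0%, with 311 at an unadjusted p below 0.05, 1.05%), and the 5.02 for Uqcr10, which had the smallest p, did not pass either (adjusted p = 1). Next by p among probe sets with 1 gene symbol came Fut10 (2.21), the _x_at Uqcr10 probe set (3.05), Trim6 (-1.92) and Dusp18 (3.36). None of them passed. The Fut10 probe set differed by -0.26 ± 0.30 in mdx against WT, with overlap. In the Cmah-deficient animals it differed by -2.47 ± 0.30 and passed (limma adjusted p = 0.0185). A brighter Fut10 probe set gave 1.70 ± 0.60 for the difference. The macrophage list had a median of 2.25 in the Cmah-deficient animals, the developmental list 1.40 and the cell cycle list 1.70. Whether these exceed the medians in mdx against WT was not tested. The Schwann cell and nerve list had a median of -0.08 in the Cmah-deficient animals, against -0.72 in mdx against WT. That difference was not tested either.

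In the heart of the same mdx and WT animals no probe set passed in limma's 24-array fit (0%, with 171 at an unadjusted p below 0.05, 0.55%). Myh3 differed in heart by 0.51 ± 0.42, Myh8 by 0.12 ± 0.56, Cdh4 by -0.15 ± 0.46 and Pclo by 0.18 ± 0.36. Mean readings in mdx and WT hearts were low for Myh3 (5.17 and 4.66), Myh8 (3.98 and 3.86) and Pclo (3.84 and 3.66). Those of Cdh4 (4.74 and 4.89) and Dusp26 (4.65 and 4.41) were low as well, near the gastrocnemius filter level of 4.66. A fall of Cdh4 or Dusp26 from such readings could hardly be seen in heart. The lower Uqcr10 probe set differed in heart by 4.09 ± 0.67 and the dimmer Dusp18 probe set by 3.78 ± 0.69. The Pisd-ps3 probe set of smallest p in gastrocnemius differed by -1.80 ± 0.51. These sizes are near those in gastrocnemius (4.88, 2.82 and -1.99). Brighter probe sets again gave smaller heart values: -0.07 for Uqcr10, 0.10 for Dusp18, and -0.76 and -0.73 for Pisd-ps3. The _x_at Uqcr10 probe set gave 2.58, and the remaining Pisd-ps3 ones gave -1.65 and -1.03. Tissues of 1 animal share its genotype, so these hearts add no further animals. The macrophage list had a median of -0.40 in heart with 24 of 27 genes negative, and Gpnmb and Mmp12 differed by -1.85 ± 0.70 and -2.55 ± 1.02 (adjusted p = 1 each). Gpnmb averaged 5.73 ± 0.35 in mdx hearts and 7.57 ± 2.08 in WT hearts, and Mmp12 4.20 ± 0.43 and 6.75 ± 2.92 (SD, n = 3 each). The test of gastrocnemius minus heart called no probe set (0%, with 727 at an unadjusted p below 0.05, 2.34%). Its smallest p-values belonged to Dusp26 (-3.06, adjusted p = 0.117), Pclo (2.58), Gpnmb (4.98) and Myh8 (3.92), each of these 3 at 0.122, and Mmp12 (6.83, 0.150). With array weights in that fit 207 probe sets passed, among them those of Dusp26, Pclo, Gpnmb, Myh8, Mmp12, Myh3, Cdh4 and Lgals3.

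**Figure D4:**
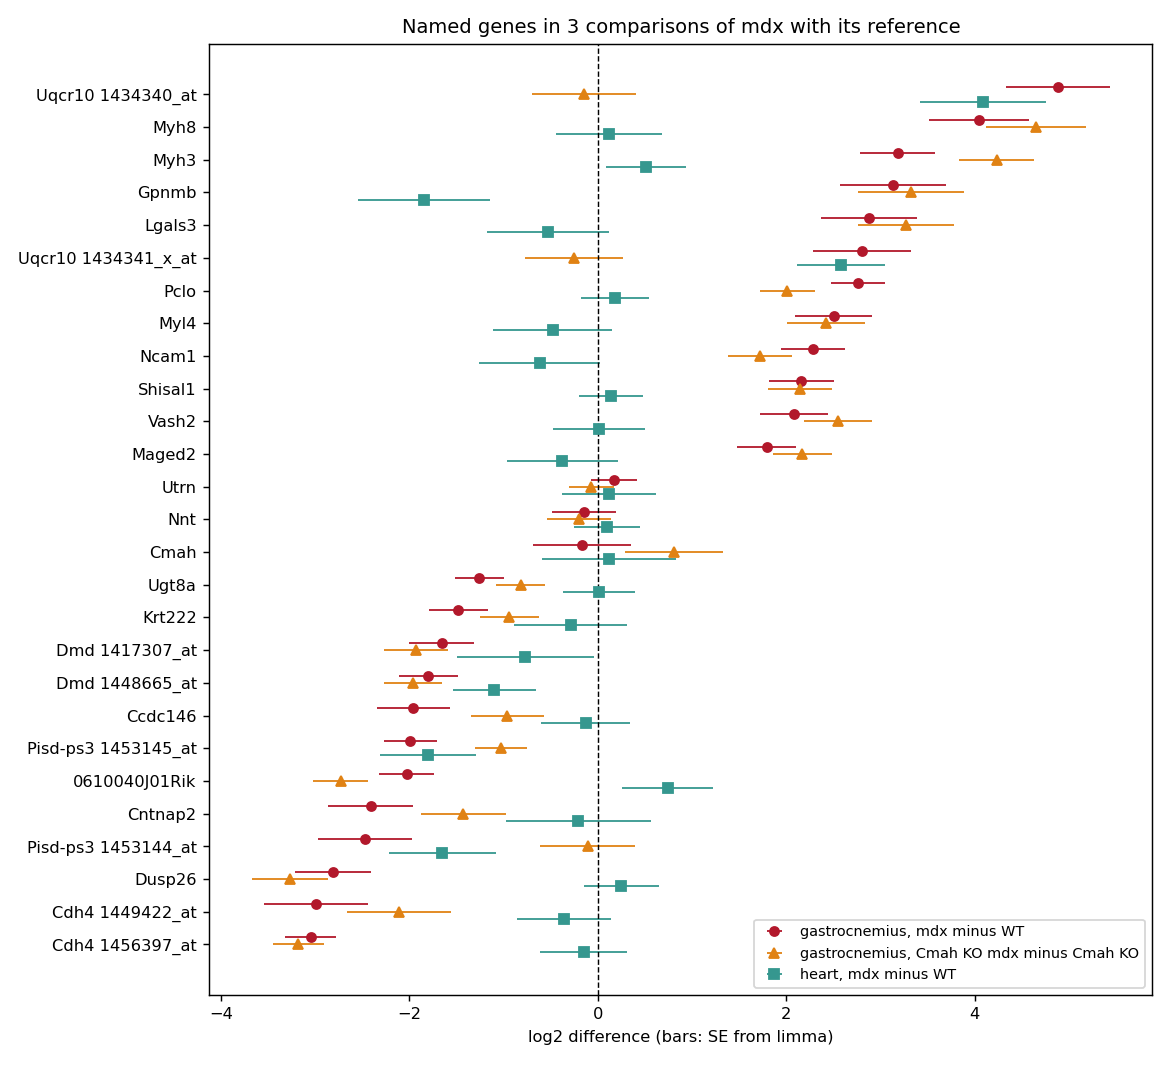
Log2 differences ± SE of the named genes in gastrocnemius mdx minus WT (red circles), gastrocnemius Cmah knockout mdx minus Cmah knockout (orange triangles) and heart mdx minus WT (green squares), ordered by the first, with probe set names where a gene has several. Myh8, Myh3, Pclo, Cdh4 and Dusp26 have the same sign in both gastrocnemius comparisons and heart values between -0.15 and 0.51, whereas the Uqcr10 probe sets are high in mdx against WT in both tissues (4.88 and 4.09 at the upper one) and near 0 in the Cmah-deficient animals (-0.15).

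Cmah itself read 7.71, 7.69 and 6.24 in mdx, against 7.89, 6.98 and 7.28 in WT (-0.17 ± 0.52), with overlap. The same probe set averaged 7.16 ± 0.85 in Cmah knockout mdx and 6.36 ± 0.56 in Cmah knockout (SD, n = 3 each). It thus does not clearly follow the knockout and cannot show whether Cmah is intact. The other Cmah probe sets were too dim in gastrocnemius to be tested. Nnt, a mitochondrial transhydrogenase gene known to carry a deletion in the C57BL/6J strain, read 12.48, 12.07 and 11.99 in mdx, against 11.93, 12.16 and 12.90 in WT (-0.15 ± 0.34), also with overlap. The name of this Nnt probe set ends in _x_at, and a further Nnt probe set without that suffix gave -0.05 ± 0.27. The position of the Nnt probes relative to that deletion was not analysed here, so the values are no check of the strain labels.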

How the data were processed

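RNA from the gastrocnemius and heart of 12 mice was amplified, labelled and hybridised to Affymetrix mouse arrays, 1 per tissue and animal, per the labels' protocols. The deposited values are linear intensity values of 45101 probe sets, for which the submitters' processing notes name GCOS and RMA. Their versions, settings and roles are not given in the sources used here, so the background correction behind dim values is unknown.

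The 64 control probe sets were left out and log2 was taken. Tested were the probe sets with 3 or more of the 12 gastrocnemius arrays over log2 4.66, the 40th percentile of these arrays' values. The 4 group means were fitted over those 12 arrays with limma 3.58.1 in R 4.3.3 (lmFit and eBayes, two-sided) and p was adjusted by Benjamini-Hochberg over 29518 probe sets. Gastrocnemius minus heart was fitted over all 24 arrays (31070 probe sets) with animal as a random block (consensus correlation 0.217, reused in repeats). Only the mdx minus WT contrast of the 12-array fit was tried on simulated data, with values drawn independently for each array. The 24-array fit and the tests of a difference were not tried in this way.

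The platform annotation gives a single gene symbol to 34945 probe sets. The 932 with several symbols and the 9160 without any named no gene. A gene was read from its brightest such probe set, save where a probe set is given for itself. Named were Dmd, Utrn, Cmah, Nnt, every call, up to 12 probe sets of smallest p in each direction, up to 6 members of each list (smallest p, and the largest opposite value), and the 5 of smallest p at each test of a difference. Myog, Mki67 and other list members outside that rule were chosen after their values were seen. Of 659 entries in 40 gene lists, 611 were on the array and 579 were tested. Since the filter keeps a gene that is bright in only 1 group, list counts are descriptions and no tests. The members and lists were chosen with earlier results of these data known. No pair of arrays was identical. The p-values set each difference of means against the spread between animals within groups, pooled over the groups of the fit and moderated across probe sets.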

Additional observations from a re-analysis of the deposited data

Results flagged for a closer look

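The Gpnmb differences had opposite signs in the 2 tissues. In gastrocnemius every mdx array lay above every WT array, whereas in heart every mdx array lay below every WT array, with means of 5.73 ± 0.35 in mdx hearts and 7.57 ± 2.08 in WT hearts (SD, n = 3 each). The heart difference of -1.85 ± 0.70 did not pass (limma adjusted p = 1). The difference between the tissues, 4.98 on the log2 scale, did not pass limma's test (adjusted p = 0.122).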

How the results depend on the processing

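The count of 5 calls in mdx against WT was 13 with all 24 arrays in the fit, 13 with the Gapdh difference as a covariate, 9 with array weights, 8 after quantile normalization and 0 with limma on the 6 mdx and WT arrays alone (872 at an unadjusted p below 0.05). Leaving out 1 array gave 1 to 9 calls: 1 without WT replicate 2, 2 without mdx replicate 2, 3 without WT replicate 1 or any Cmah knockout array, and 9 without mdx replicate 3. An alternative chosen after seeing the data left out the 4 arrays of highest Gapdh difference, 1 of them mdx replicate 1 and 1 WT replicate 3, and gave 2 calls, 1 of them shared. In these refits the lone or paired arrays of a group are assumed to vary like the others, and what causes the shifts was not tested. Replicate numbers do not pair animals: between mdx and WT, deviations of arrays with the same number correlated at -0.439 to 0.228, and of 12 arrays 3 correlated best with their own number. Deviations of the 4 arrays of highest Gapdh difference correlated with each other at 0.564 to 0.617, across groups. With the Gapdh covariate in limma 2013 probe sets had an unadjusted p below 0.05, against 1064 without it. Whether RNA quality underlies this shared spread was not tested. With replicate number as a replicate block there were 4 calls, without Myh3 (limma adjusted p = 0.0637). All 5 calls were lost with the 6 arrays alone (0.141 to 0.34). Without the 4 arrays Cdh4 (0.0672), Pclo (0.101), Myh3 (0.101) and Uqcr10 (0.305) were lost and Myh8 was kept, and without the filter Myh8 was lost (0.0581). The test between the readings of dystrophin loss gave 0 calls under all other alternatives and 0 to 1 when 1 array was left out (1 without mdx replicate 1). Gastrocnemius minus heart gave 207 with array weights, 3 with log2 of the value plus 16, 3 with the Gapdh covariate and 0 to 3 when 1 array was left out (3 without gastrocnemius WT replicate 1, 1 without heart WT replicate 2). Cmah ranged from -0.42 to 0.32 when 1 array was left out, turning to 0.08 without WT replicate 1 and to 0.32 without mdx replicate 3. Nnt ranged from -0.35 to 0.13, turning positive without WT replicate 3. Depth has no counterpart on arrays: signals under the filter level, as in WT for Pclo and Uqcr10, give uncertain sizes.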
